A study of Mus musculus with 48 samples.

Results

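The integrated stress response (ISR) core and its secreted stress hormones were followed through the hearts of PLNR9C and wild type mice given JQ1 or vehicle. The set, taken by symbol from the deposited gene tables, holds 10 of the 31920 genes listed: Atf4, Atf5, Ddit3, Nupr1, Trib3, Chac1, Sesn2, Ppp1r15a, Gdf15 and Fgf21. All 10 were listed in every table. After the filter on low counts 9 were tested in every comparison, and Fgf21 was the member below it. PLNR9C is a mutant of phospholamban, an inhibitor of the calcium pump SERCA in cardiomyocytes, and it causes dilated cardiomyopathy (DCM). JQ1 displaces BET bromodomain proteins from acetylated histones. All mice were of the FVB strain, and JQ1 was dosed at 50 mg/kg. Each sample type held 4 groups of 3 libraries, labelled PLNR9C-JQ1, PLNR9C-vehicle, Wild type-JQ1 and Wild type-vehicle. The sample types were whole left ventricle at 8 weeks, a stage labelled preDCM, whole left ventricle at 20 weeks, labelled DCM, and pooled cardiomyocytes and pooled non-myocytes at 16 weeks, also labelled DCM, so that 48 libraries fell into 16 groups. Wild type mice carry the stage label of their age. Which promoter drives PLNR9C, and how many animals entered a cell pool, is unknown, since neither is given in the sources used here.

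The ISR begins when a stress kinase (PERK, GCN2, PKR or HRI) phosphorylates the translation factor eIF2 alpha. Bulk translation then falls, while messages with short upstream reading frames, above all Atf4, are translated more. ATF4 is a bZIP transcription factor that binds C/EBP-ATF response elements (CAREs) with C/EBP partners and turns on genes of amino acid supply, redox balance and feedback. In heart and skeletal muscle the same pathway is known to respond to mitochondrial and endoplasmic reticulum (ER) stress, and GDF15 and FGF21 are its circulating outputs. Because ATF4 and ATF5 are controlled largely in translation, their mRNA levels do not report their protein levels.

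The start-site windows of these genes are shown because the members moved in different ways with genotype and with JQ1. The members were chosen as genes of a pathway whose factor ATF4 binds CAREs, so a CARE in them is not an independent finding. Each window is from RefSeq on GRCm38.p6 and was searched over its whole length of 300 bases. The 280 bases printed run from 250 bases before to 30 bases after the start, 5′ to 3′ on the gene's own strand. All 10 members matched the table by symbol. The 4 windows printed are those that hold the CARE core, spelled TGATGNAA and searched on both strands, with the match in capitals as it reads on the printed strand. They lie at chr7:126625441-126625720 (minus strand) for Nupr1, chr2:152344031-152344310 (minus strand) for Trib3, chr2:119350992-119351271 (plus strand) for Chac1 and chr7:45615461-45615740 (minus strand) for Fgf21.
Nupr1: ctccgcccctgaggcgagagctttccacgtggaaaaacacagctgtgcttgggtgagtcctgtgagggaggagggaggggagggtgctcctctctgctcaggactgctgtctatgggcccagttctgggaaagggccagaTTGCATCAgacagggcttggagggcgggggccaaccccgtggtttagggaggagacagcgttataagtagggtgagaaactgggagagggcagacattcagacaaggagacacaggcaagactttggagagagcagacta
Trib3: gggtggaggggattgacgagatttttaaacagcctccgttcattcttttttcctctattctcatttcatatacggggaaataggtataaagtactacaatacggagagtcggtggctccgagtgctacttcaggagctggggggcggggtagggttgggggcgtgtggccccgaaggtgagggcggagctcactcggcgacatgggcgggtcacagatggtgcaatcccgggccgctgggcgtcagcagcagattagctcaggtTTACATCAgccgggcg
Chac1: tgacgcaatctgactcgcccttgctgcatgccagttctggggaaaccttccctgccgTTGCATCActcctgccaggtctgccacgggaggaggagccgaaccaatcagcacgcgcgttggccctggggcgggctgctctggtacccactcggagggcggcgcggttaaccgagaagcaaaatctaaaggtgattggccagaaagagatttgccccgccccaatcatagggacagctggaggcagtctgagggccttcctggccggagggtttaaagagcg
Fgf21: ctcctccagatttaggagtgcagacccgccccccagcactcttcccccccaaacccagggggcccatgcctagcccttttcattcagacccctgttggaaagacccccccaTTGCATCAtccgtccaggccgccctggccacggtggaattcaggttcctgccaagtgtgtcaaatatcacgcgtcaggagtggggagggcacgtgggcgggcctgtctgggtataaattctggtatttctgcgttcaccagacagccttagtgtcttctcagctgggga

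The first base of the match stands 110 bases before the start in Nupr1, 193 before it in Chac1, 139 before it in Fgf21 and 14 after it in Trib3. All 4 matches read on the strand opposite to the gene. In the whole windows of all promoters, searched in the same way, the core occurs in 1304 of 32851 promoters (3.97%), or in 1219 of 27025 genes (4.51%). The cyclic AMP response element TGACGTCA, whose letters do not overlap those of the CARE match in any member, occurs in the Ppp1r15a window, 12 bases before the start, and in 1.79% of all promoters. An ER stress element, written as CCAAT and CCACG with 9 bases between them, occurs in no member and in 0.119% of promoters. Neither of these motifs nor the CARE core was found in the windows of Atf4, Atf5, Ddit3, Sesn2 and Gdf15. A match is a description of letters and not a binding site.

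Each ventricle library held 16984138 to 27086694 reads in genes at 8 weeks and 18415351 to 26730918 at 20 weeks. Cardiomyocyte libraries held 10249780 to 13146653 and non-myocyte libraries 10041094 to 11815003. Levels below are in CPM, read counts divided by TMM-scaled library sizes, unless RPKM, the per-length value the authors deposited, is named. Tests are edgeR's quasi-likelihood test with Benjamini-Hochberg adjustment across every gene in the fit, and an adjusted p under 0.05 counted as passing. Log2 fold changes carry their standard error and levels their SD (n = 3 libraries a group). Per the design text the 3 libraries of a group are individual biological replicates, and for the fractions each is a pool, so p-values measure the spread between these libraries. The fractions held the cells their labels name: on a common scale the 9 cardiomyocyte markers (Myh6, Tnnt2, Ttn and others) summed to 105252 to 117149 CPM in Wild type-vehicle cardiomyocytes, against 1901 to 2955 CPM in Wild type-vehicle non-myocytes. Among the 48 libraries, PLNR9C-JQ1 cardiomyocyte replicate 1 was the only library that correlated better with a library of another group (r = 0.975) than with its own group on average (r = 0.969). In the GENCODE annotation Atf5 overlaps exons of Il4i1 and Nup62 on the opposite strand (82 bases), Ddit3 those of Mars (68 bases) and Gm4189 (13 bases), and Ppp1r15a those of Tulp2 (12 bases). All of these genes but Gm4189 are listed in every deposited table. Reads of these short stretches cannot be told apart, because the strand setting of the counting is unknown (not given in the sources used here).

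Scaled by gene length, Atf4 (15:80255184-80257541, GRCm38, as are the coordinates that follow) was the most abundant member in wild type hearts and Fgf21 (7:45613890-45615490) the least. In Wild type-vehicle ventricles at 8 weeks Atf4 had 22.5 ± 0.335 RPKM, Ddit3 (10:127290793-127296288) 15.4 ± 0.828 RPKM, Atf5 (7:44812256-44816658) 11.9 ± 0.556 RPKM and Ppp1r15a (7:45522917-45526268) 7.39 ± 0.359 RPKM. The libraries of these 4 genes did not overlap one another. Chac1 (2:119351242-119354327) followed with 4.07 ± 0.822 RPKM, above Nupr1 (7:126623246-126625470) with 2.22 ± 0.526 RPKM. Gdf15 (8:70629394-70632456) at 1.98 ± 0.676 RPKM, Sesn2 (4:132492807-132510456) at 1.66 ± 0.232 RPKM and Trib3 (2:152337425-152344060) at 1.25 ± 0.338 RPKM overlapped their neighbours in this order. Fgf21 had 0.0174 ± 0.0302 RPKM. Genotype changed that order: Gdf15 led the 10 members in PLNR9C-vehicle ventricles at 20 weeks, with 68.7 ± 17.2 RPKM against 38.6 ± 2.00 RPKM for Atf4, and in PLNR9C-vehicle cardiomyocytes, with 222 ± 35.6 RPKM against 82.0 ± 22.9 RPKM for Atf4.

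In wild type cells, 2 of the 9 tested members were higher and 5 lower in Wild type-vehicle cardiomyocytes than in Wild type-vehicle non-myocytes. Of all genes 79.5% passed in this comparison, so the members' share was about that of any gene. On the common scale Chac1, an enzyme that degrades glutathione, averaged 8.04 ± 2.84 CPM in cardiomyocytes and 2.65 ± 0.529 CPM in non-myocytes (log2 fold change 1.59 ± 0.27, adjusted p = 1.43e-05). Gdf15 averaged 21.4 ± 19.1 CPM in cardiomyocytes, where its 3 libraries ranged widely, and 4.60 ± 1.71 CPM in non-myocytes (2.22 ± 0.58, adjusted p = 0.00177). Nupr1, a small stress-induced chromatin protein, averaged 0.836 ± 0.284 CPM in cardiomyocytes and 13.7 ± 0.854 CPM in non-myocytes (-4.00 ± 0.40, adjusted p = 6.74e-09). Trib3, a pseudokinase that restrains ATF4 and Akt, averaged 1.90 ± 0.795 CPM in cardiomyocytes and 11.3 ± 1.69 CPM in non-myocytes (-2.57 ± 0.26, adjusted p = 8.29e-09). For Nupr1 and Trib3 every cardiomyocyte library lay below every non-myocyte library. Atf5 (-1.45 ± 0.15), Sesn2 (-0.75 ± 0.14) and Ppp1r15a (-0.80 ± 0.24) were also lower in cardiomyocytes, while Atf4 (-0.11) and Ddit3 (0.24) did not pass.

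**Figure D1:**
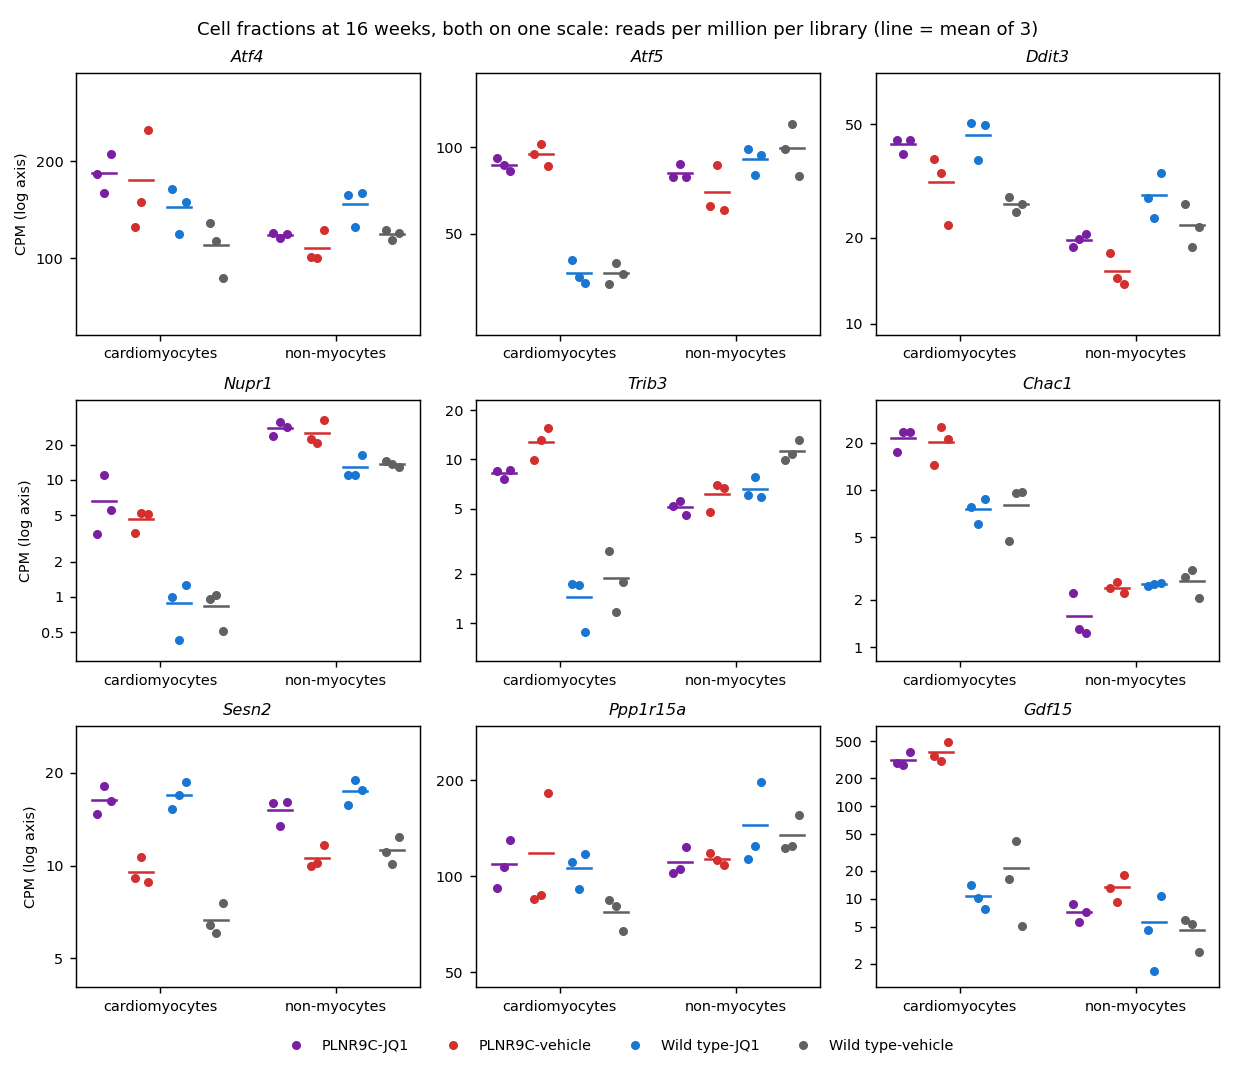
Levels of the 9 tested members in cardiomyocytes and non-myocytes at 16 weeks, in CPM on a log axis, with both fractions scaled together; points are libraries, lines are means of 3, and colours are the 4 groups. In wild type cells Trib3, Nupr1 and Atf5 lie lower in cardiomyocytes than in non-myocytes, and in PLNR9C cardiomyocytes Trib3 and Atf5 lie at or above the level of PLNR9C non-myocytes.

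With vehicle, PLNR9C raised most of the set in ventricle and in cardiomyocytes, but not in non-myocytes. In PLNR9C-vehicle against Wild type-vehicle ventricles 6 of the 9 tested members were higher and 0 lower at 8 weeks, where 14.4% of all genes passed, 7.86% higher and 6.5% lower. At 20 weeks 7 were higher and 0 lower, beside 44.7% of all genes, 23.3% higher and 21.4% lower. In cardiomyocytes 7 were higher and 0 lower, beside 26.1%, of which 14.3% higher and 11.8% lower. Non-myocytes had 1 higher and 3 lower, beside 18.6%, of which 10.3% higher and 8.32% lower. The members were chosen with earlier results of these data known, so an excess over these shares is not an independent finding. The median log2 fold change of the 9 members was 0.84 at 8 weeks and 0.49 at 20 weeks, 1.38 for cardiomyocytes and -0.14 for non-myocytes, with that of all genes between -0.011 and 0.00966. Cell markers moved with genotype too. At 20 weeks the 9 cardiomyocyte markers summed to 32115 to 37479 CPM in PLNR9C-vehicle ventricles and 67618 to 78268 CPM in Wild type-vehicle ventricles. The 7 fibroblast markers summed to 2907 to 3359 CPM in PLNR9C-vehicle ventricles and 870 to 1060 CPM in Wild type-vehicle ventricles, and the 7 macrophage markers to 582 to 799 CPM and 192 to 215 CPM in the same groups. At 8 weeks the differences were smaller, with cardiomyocyte markers at 50776 to 58075 CPM in PLNR9C-vehicle and 67394 to 70422 CPM in Wild type-vehicle ventricles. In cardiomyocyte pools fibroblast markers summed to 630 to 941 CPM in PLNR9C-vehicle and 159 to 214 CPM in Wild type-vehicle libraries. The mix within non-myocyte pools differed too: endothelial markers summed to 2309 to 3189 CPM in PLNR9C-vehicle and 4078 to 5111 CPM in Wild type-vehicle libraries. Macrophage markers summed to 3600 to 4357 CPM and 1370 to 1586 CPM in the same order, and smooth muscle and pericyte markers to 1250 to 1532 CPM and 1904 to 2385 CPM. No gene of these lists was at 0, and their part in the results was not tested. In bulk RNA, fewer cells of a type and less RNA per cell cannot be told apart.

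**Figure D2:**
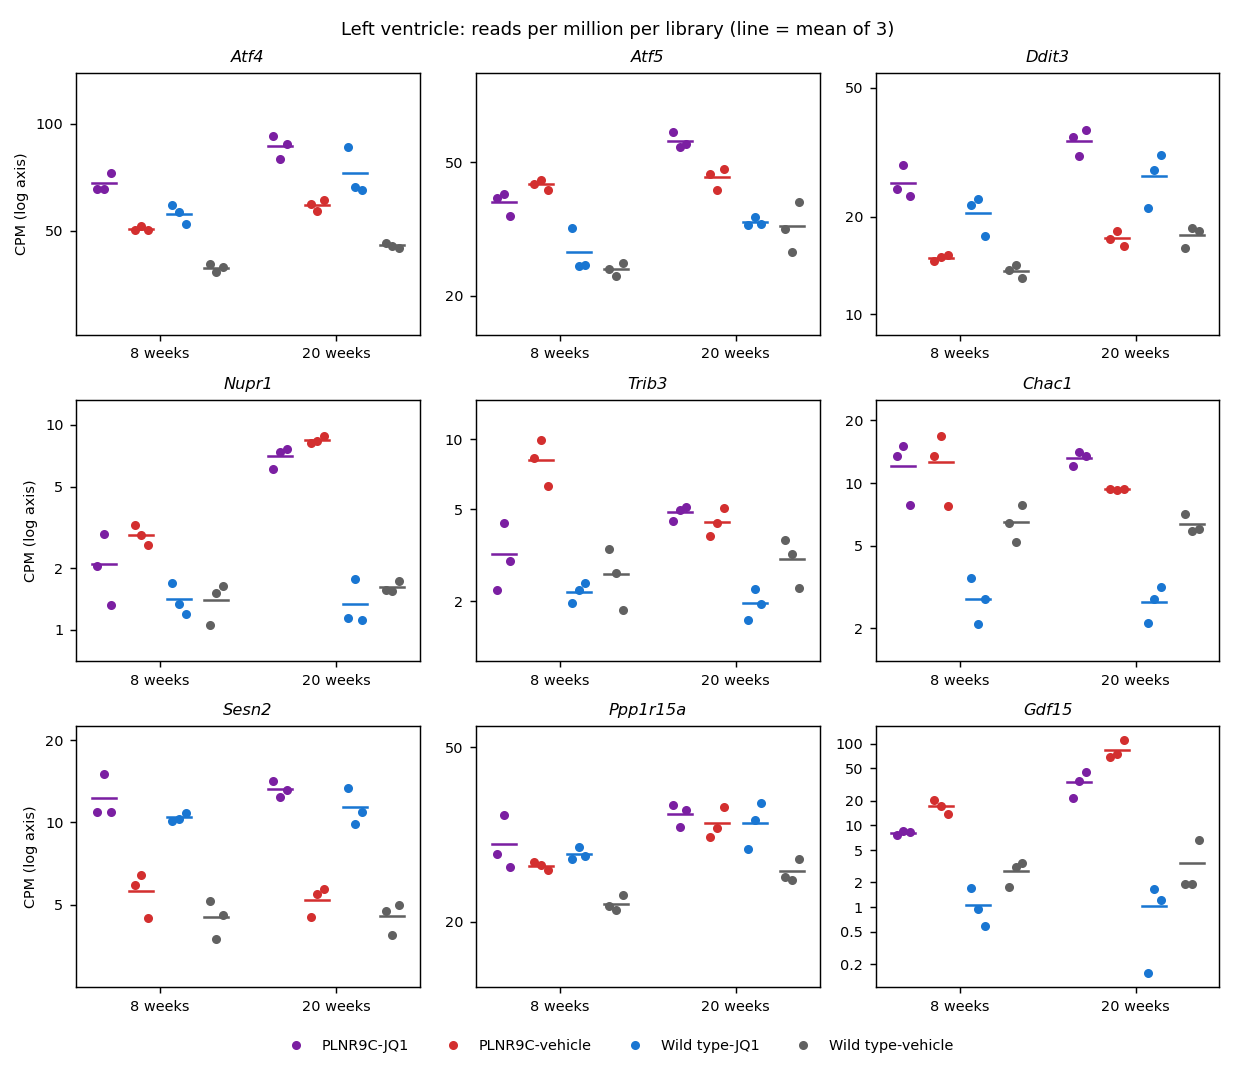
Levels of the 9 tested members in left ventricle at 8 and 20 weeks, in CPM on a log axis; points are libraries, lines are means of 3, and colours are the 4 groups. Gdf15 at both ages and Nupr1 at 20 weeks separate by genotype, with higher levels in PLNR9C (at 8 weeks Nupr1 overlaps between PLNR9C-JQ1 and wild type), while Sesn2 and Ddit3 separate by treatment, with higher levels under JQ1.

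Atf4, the hub of the pathway, had 50.1, 51.7 and 50.2 CPM in PLNR9C-vehicle ventricles at 8 weeks, against 40.3, 38.3 and 39.6 CPM in Wild type-vehicle ventricles (log2 fold change 0.36 ± 0.067, adjusted p = 0.00111). Ventricles at 20 weeks had 59.6, 56.6 and 60.9 CPM in PLNR9C-vehicle and 46.3, 45.3 and 44.7 CPM in Wild type-vehicle ventricles (0.38 ± 0.094, adjusted p = 0.00325). The groups did not overlap at either age, and the rise was about equally small at both. In cardiomyocytes Atf4 had 96.4, 115 and 191 CPM in PLNR9C-vehicle against 96.0, 83.9 and 64.2 CPM in Wild type-vehicle libraries (0.72 ± 0.24, adjusted p = 0.0411). That call rested on single libraries: the change was 0.37 (adjusted p = 0.172) without PLNR9C-vehicle replicate 3, the library at 191 CPM, and it was also lost without Wild type-vehicle replicate 2 (0.74) or replicate 3 (0.56). Non-myocytes had 132, 134 and 162 CPM in PLNR9C-vehicle and 163, 149 and 159 CPM in Wild type-vehicle libraries, which overlap (-0.14, adjusted p = 0.419).

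Atf5, a close relative of ATF4 known to protect mitochondria, rose more. It had 43.2, 44.3 and 41.3 CPM in PLNR9C-vehicle ventricles at 8 weeks, against 24, 23.0 and 25.0 CPM in Wild type-vehicle ventricles (0.84 ± 0.094, adjusted p = 9.05e-06). At 20 weeks the change was 0.49 ± 0.10 (adjusted p = 0.000746). In cardiomyocytes Atf5 had 73.5, 79.1 and 65.7 CPM in PLNR9C-vehicle and 24.9, 29.3 and 26.9 CPM in Wild type-vehicle libraries (1.43 ± 0.11, adjusted p = 7.62e-06). Every PLNR9C cardiomyocyte library stood at more than 2 times every wild type library. In non-myocytes the direction turned: 82.4, 116 and 80.0 CPM in PLNR9C-vehicle, against 132, 158 and 105 CPM in Wild type-vehicle libraries (-0.51 ± 0.16, adjusted p = 0.0438). This fall lost its call without PLNR9C-vehicle replicate 1 (-0.41) or 3 (-0.40) or Wild type-vehicle replicate 1 (-0.49) or 2 (-0.33).

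Ddit3 encodes CHOP, the bZIP factor tied to cell death in prolonged ER stress, and with vehicle it did not pass for genotype in ventricle or cardiomyocytes. It had 14.6, 15.0 and 15.3 CPM in PLNR9C-vehicle and 13.7, 14.2 and 13.0 CPM in Wild type-vehicle ventricles at 8 weeks (0.13, adjusted p = 0.495). The 20-week values were 17.1, 18.1 and 16.3 CPM in PLNR9C-vehicle and 16.1, 18.5 and 18.1 CPM in Wild type-vehicle ventricles (-0.03, adjusted p = 0.86). Its cardiomyocyte change was 0.31 (adjusted p = 0.223). In non-myocytes Ddit3 fell, with 23.2, 19.4 and 18.2 CPM in PLNR9C-vehicle against 35, 24.3 and 28.9 CPM in Wild type-vehicle libraries (-0.54 ± 0.16, adjusted p = 0.0301). It lost that call without PLNR9C-vehicle replicate 2 (-0.49) or 3 (-0.45) or Wild type-vehicle replicate 1 (-0.38) or 3 (-0.53).

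Nupr1 was the only tested member that rose with genotype in all 4 sample types. It had 3.23, 2.91 and 2.60 CPM in PLNR9C-vehicle ventricles at 8 weeks, against 1.06, 1.51 and 1.64 CPM in Wild type-vehicle ventricles (1.04 ± 0.27, adjusted p = 0.0133). The change at 8 weeks was 0.96 without PLNR9C-vehicle replicate 1 and 0.89 without Wild type-vehicle replicate 1, and neither passed (adjusted p = 0.057 and 0.079). Values at 20 weeks were 8.14, 8.35 and 8.85 CPM in PLNR9C-vehicle and 1.56, 1.56 and 1.72 CPM in Wild type-vehicle ventricles, a change of 2.39 ± 0.18 (adjusted p = 1.07e-08). The 3 libraries of each genotype lay close together and far from the other genotype. Cardiomyocytes had 2.72, 4.03 and 3.91 CPM in PLNR9C-vehicle against 0.709, 0.775 and 0.379 CPM in Wild type-vehicle libraries (2.49 ± 0.49, adjusted p = 0.00267). Non-myocytes had 29.3, 27.8 and 42.8 CPM in PLNR9C-vehicle and 19.3, 18.1 and 17.0 CPM in Wild type-vehicle libraries (0.88 ± 0.19, adjusted p = 0.00588). Nupr1 was thus far higher in the non-myocyte pools, whose fibroblast markers summed to 11718 to 14216 CPM in PLNR9C-vehicle and 6400 to 7099 CPM in Wild type-vehicle libraries. In the cardiomyocyte pools fibroblast markers summed to 630 to 941 CPM in PLNR9C-vehicle and 159 to 214 CPM in Wild type-vehicle libraries. Macrophage markers there summed to 213 to 279 CPM and 37.1 to 49.8 CPM in the same order. Their part in the cardiomyocyte change of Nupr1 was not tested.

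Trib3 rose in PLNR9C cardiomyocytes and fell in PLNR9C non-myocytes. In cardiomyocytes it had 7.64, 10.1 and 11.8 CPM in PLNR9C-vehicle against 2.04, 0.861 and 1.32 CPM in Wild type-vehicle libraries, a 6.97-fold rise (2.80 ± 0.30, adjusted p = 4.75e-05). In non-myocytes it had 6.27, 9.28 and 8.79 CPM in PLNR9C-vehicle and 13.2, 14.2 and 17.5 CPM in Wild type-vehicle libraries (-0.89 ± 0.18, adjusted p = 0.0037). Neither pair of groups overlapped. Ventricles at 8 weeks had 8.30, 9.90 and 6.30 CPM in PLNR9C-vehicle against 3.35, 2.65 and 1.84 CPM in Wild type-vehicle libraries (1.66 ± 0.24, adjusted p = 0.000156). At 20 weeks they had 3.82, 4.36 and 5.06 CPM in PLNR9C-vehicle and 3.68, 3.2 and 2.28 CPM in Wild type-vehicle libraries (0.52 ± 0.20, adjusted p = 0.0415). The call at 20 weeks was weak: it was lost without PLNR9C-vehicle replicate 2 (0.52) or 3 (0.41) or Wild type-vehicle replicate 2 (0.55) or 3 (0.36), and with the replicate number as a block (adjusted p = 0.0531).

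Chac1 rose in cardiomyocytes, where it had 11.1, 19.2 and 16.2 CPM in PLNR9C-vehicle against 3.55, 7.14 and 7.19 CPM in Wild type-vehicle libraries (1.38 ± 0.27, adjusted p = 0.00265). At 20 weeks it had 9.35, 9.27 and 9.38 CPM in PLNR9C-vehicle and 7.10, 5.91 and 5.98 CPM in Wild type-vehicle ventricles (0.56 ± 0.14, adjusted p = 0.0035). At 8 weeks the 13.5, 16.8 and 7.74 CPM in PLNR9C-vehicle and 6.46, 5.21 and 7.81 CPM in Wild type-vehicle ventricles overlapped, and the change of 0.98 ± 0.32 did not pass (adjusted p = 0.0726), although it did with DESeq2 (adjusted p = 0.0445) and without robust estimation (0.0203). Non-myocytes had 2.93 to 3.46 CPM in PLNR9C-vehicle and 2.74 to 4.06 CPM in Wild type-vehicle libraries (-0.14, adjusted p = 0.732).

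Sesn2 and Ppp1r15a feed back on growth and translation. Sesn2 encodes a leucine sensor that restrains mTORC1. It had 5.88, 6.43 and 4.48 CPM in PLNR9C-vehicle and 5.17, 3.74 and 4.58 CPM in Wild type-vehicle ventricles at 8 weeks (0.34, adjusted p = 0.219), and its change at 20 weeks was 0.20 (adjusted p = 0.332). In cardiomyocytes it had 7.04, 8.19 and 6.78 CPM in PLNR9C-vehicle against 4.79, 4.47 and 5.58 CPM in Wild type-vehicle libraries (0.57 ± 0.17, adjusted p = 0.0242), a call lost without PLNR9C-vehicle replicate 2 (0.49) or Wild type-vehicle replicate 1 (0.55) or 2 (0.50). Ppp1r15a encodes GADD34, the phosphatase subunit that reverses eIF2 alpha phosphorylation. It had 27.4, 26.9 and 26.3 CPM in PLNR9C-vehicle and 21.8, 21.2 and 23.0 CPM in Wild type-vehicle ventricles at 8 weeks (0.29 ± 0.091, adjusted p = 0.0394). Although those groups did not overlap, leaving out any of the 6 libraries lost the call (0.26 to 0.32, adjusted p = 0.0559 to 0.13). Ppp1r15a at 20 weeks had 31.2, 32.8 and 36.7 CPM in PLNR9C-vehicle and 25.3, 25.0 and 27.9 CPM in Wild type-vehicle ventricles (0.36 ± 0.098, adjusted p = 0.00551). Its cardiomyocyte change of 0.66 ± 0.26 did not pass (adjusted p = 0.0814), and PLNR9C-vehicle replicate 3, at 139 CPM, stood apart from the other two libraries of that group (65.7 and 66.9 CPM).

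Gdf15, the anorexigenic hormone of the TGF-beta family that signals through GFRAL and RET in the hindbrain, showed the largest genotype change of the tested members in ventricle and in cardiomyocytes. At 8 weeks it had 20.5, 17.3 and 14.0 CPM in PLNR9C-vehicle against 1.76, 3.11 and 3.48 CPM in Wild type-vehicle ventricles, a 6.12-fold rise (2.61 ± 0.24, adjusted p = 8.07e-06). At 20 weeks it had 69.3, 75.3 and 110 CPM in PLNR9C-vehicle against 1.90, 1.91 and 6.59 CPM in Wild type-vehicle ventricles, a 25.1-fold rise (4.65 ± 0.55, adjusted p = 0.000144). In cardiomyocytes it had 266, 235 and 371 CPM in PLNR9C-vehicle against 12.3, 31.5 and 3.79 CPM in Wild type-vehicle libraries, an 18.2-fold rise (4.19 ± 0.56, adjusted p = 0.000458). No PLNR9C library overlapped a wild type library in these comparisons. In non-myocytes Gdf15 had 17.4, 12.3 and 24.1 CPM in PLNR9C-vehicle and 7.81, 6.94 and 3.52 CPM in Wild type-vehicle libraries, and the change of 1.56 ± 0.52 did not pass (adjusted p = 0.0655), although it did with DESeq2 (0.0452), without robust estimation (0.035) and in a fit of only these 6 libraries (0.019). On the common scale PLNR9C-vehicle cardiomyocytes averaged 378 ± 94.5 CPM of Gdf15 and PLNR9C-vehicle non-myocytes 13.6 ± 4.53 CPM, while cardiomyocyte markers summed to 63788 to 73412 CPM in those cardiomyocytes and 1076 to 1450 CPM in those non-myocytes.

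Fgf21, a metabolic hormone that acts through FGF receptors with beta-Klotho, was counted in few reads. Ventricles at 8 weeks held 11, 14 and 6 reads in PLNR9C-vehicle and 0, 0 and 1 reads in Wild type-vehicle libraries. Ratios for Fgf21 compare group totals of reads, each over all reads in genes of that group without TMM scaling. The group totals of 31 and 1 reads gave a ratio of 31.2 (95% exact interval 5.20 to 1272, counting error only). In a fit without the low-count filter, edgeR's quasi-likelihood test gave an adjusted p of 0.00556 for this difference. Cardiomyocytes held 4, 14 and 19 reads in PLNR9C-vehicle against 2, 2 and 1 reads in Wild type-vehicle libraries, a ratio of 7.35 (2.88 to 23.9) with an adjusted p of 0.00992 in that fit. PLNR9C libraries were thus above wild type libraries in both sample types. At 20 weeks the totals were 5 reads in PLNR9C-vehicle and 4 in Wild type-vehicle ventricles, a ratio of 1.36 (0.292 to 6.85), so that no difference was detectable at this depth. Non-myocytes held 7 reads in PLNR9C-vehicle and 1 in Wild type-vehicle libraries, a ratio of 7.26 (0.932 to 327).

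The genotype effect differed between the fractions. The change in cardiomyocytes minus that in non-myocytes, tested in the fit of all 24 fraction libraries, passed for 5 of 9 members, where 8.33% of all genes passed. Trib3 differed most, by 3.64 ± 0.34 (adjusted p = 1.07e-06), followed by Gdf15 at 2.58 ± 0.78 (adjusted p = 0.0454). Atf5 differed by 1.89 ± 0.20 (adjusted p = 5.32e-06), Chac1 by 1.48 ± 0.38 (adjusted p = 0.0165) and Ddit3 by 0.79 ± 0.25 (adjusted p = 0.0495). All 5 signed differences were positive. For Ddit3 the cardiomyocyte change of 0.31 did not pass and was smaller in size than its non-myocyte fall (-0.54). Trib3 and Atf5 held without any 1 library. Without 1 of the 12 libraries the calls were lost in 8 cases for Gdf15 (2.12 to 3.56 over all 12), in 9 for Ddit3 (0.64 to 0.99) and in 1 for Chac1, without Wild type-vehicle non-myocyte replicate 2 (1.35, adjusted p = 0.0545). Libraries of the 2 fractions with the same label number deviated together, and with that number as a block Atf4 (0.77, adjusted p = 0.0127) and Nupr1 (1.59, adjusted p = 0.0216) passed as well. Without the block Atf4 was at 0.81 ± 0.27 (adjusted p = 0.0717) and Nupr1 at 1.57 ± 0.53 (adjusted p = 0.0721).

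**Figure D3:**
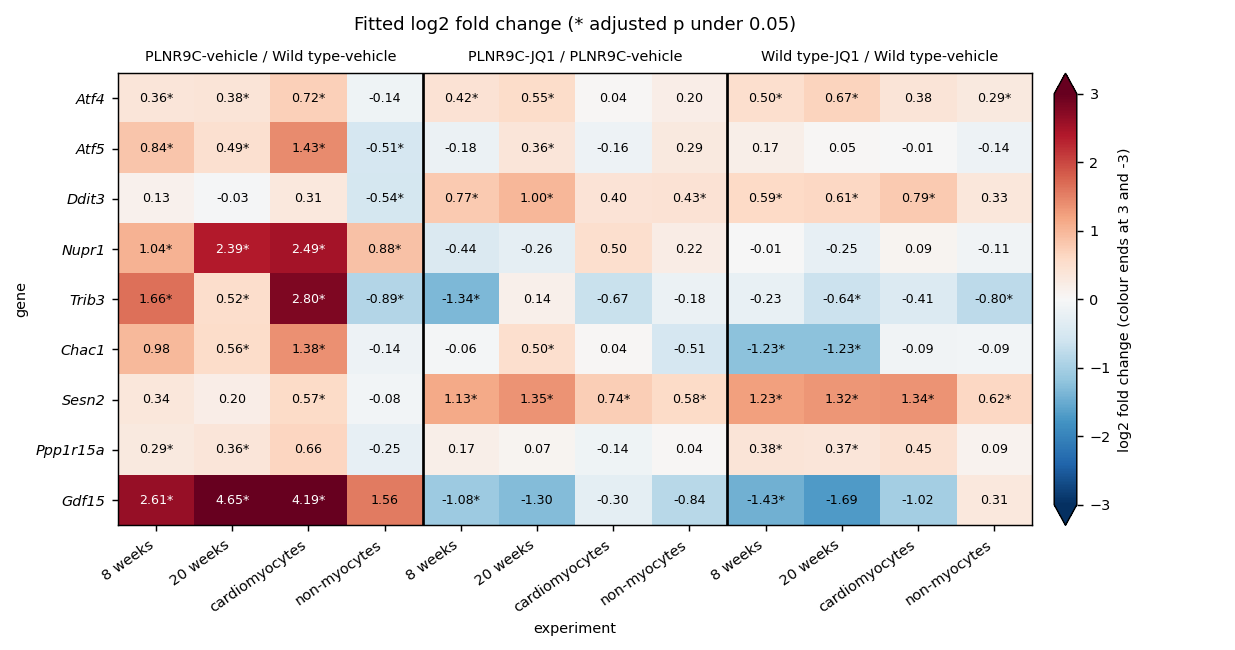
Fitted log2 fold changes of the 9 tested members (rows) in 3 comparisons by sample type (columns); an asterisk marks an adjusted p under 0.05, and the colour ends at 3 and -3. Genotype changes of Gdf15 reach 4.65 at 20 weeks, and Sesn2 carries an asterisk in all 8 JQ1 comparisons.

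Between the ages, 3 of 9 members had a genotype effect that differed (15.5% of all genes). The effect at 20 weeks minus that at 8 weeks was 1.35 ± 0.33 for Nupr1 (adjusted p = 0.00437) and 2.04 ± 0.65 for Gdf15 (adjusted p = 0.0427), both larger at 20 weeks. For Trib3 it was -1.14 ± 0.32 (adjusted p = 0.0148), smaller at 20 weeks. Nupr1 held without any 1 library. The Gdf15 call was lost without 8 of the 12 libraries (1.74 to 2.87 over all 12), and that of Trib3 without Wild type-vehicle replicate 1 at 20 weeks (-0.98) or replicate 3 at 8 weeks (-0.94). In wild type hearts Atf5 alone passed for age (0.34 ± 0.10, adjusted p = 0.047; 6.5% of all genes), and it lost the call without 5 of the 6 libraries. Each age has its own deposited table, so age and table cannot be told apart.

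In ventricle 6 members passed at least once for genotype with vehicle and at least once for JQ1 (Atf4, Atf5, Trib3, Chac1, Gdf15 and Ppp1r15a). Of all genes 14.4% and 44.7% passed for that genotype effect at 8 and 20 weeks, and 27.2% to 33.1% in each JQ1 comparison. The share of all genes passing in both kinds was not counted, so the overlap is not read as particular to the members. Directions differed: Atf4 rose with both, while Gdf15 and Trib3 rose with genotype and fell with JQ1. Sesn2 and Ddit3 passed for JQ1 and not for genotype with vehicle, and Nupr1 for genotype and not for JQ1. Sesn2 rose with JQ1 in all 8 comparisons, that is in both genotypes and all 4 sample types. In PLNR9C ventricles at 20 weeks it had 14.2, 12.4 and 13.2 CPM with JQ1 against 4.52, 5.46 and 5.69 CPM with vehicle (1.35 ± 0.15, adjusted p = 4.44e-06). In wild type ventricles at 20 weeks it had 13.3, 9.83 and 10.9 CPM with JQ1 against 4.76, 3.87 and 4.97 CPM with vehicle (1.32 ± 0.15, adjusted p = 8.43e-06). The JQ1 libraries of both genotypes lay above all vehicle libraries. At 8 weeks the rises were 1.13 ± 0.16 in PLNR9C and 1.23 ± 0.16 in wild type ventricles (adjusted p = 2.12e-05 and 1.7e-05). In cardiomyocytes they were 0.74 ± 0.16 in PLNR9C (adjusted p = 0.0135) and 1.34 ± 0.17 in wild type (adjusted p = 0.00149), and in non-myocytes 0.58 ± 0.13 and 0.62 ± 0.13 in the same order (adjusted p = 0.00292 and 0.0017). The call in PLNR9C cardiomyocytes was lost in a fit of only those 6 libraries (adjusted p = 0.0766). Sesn2 did not pass the test for an unequal JQ1 effect between genotypes in any sample type.

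Over the set, PLNR9C-JQ1 against PLNR9C-vehicle gave 3 members higher and 2 lower of 9 at 8 weeks (33.1% of all genes passed), 5 higher and 0 lower at 20 weeks (31.9%), 1 higher and 0 lower in cardiomyocytes (10.5%), and 2 higher and 0 lower in non-myocytes (36.2%). Wild type-JQ1 against Wild type-vehicle gave 4 higher and 2 lower at 8 weeks (29.8%), 4 higher and 2 lower at 20 weeks (27.2%), 2 higher and 0 lower in cardiomyocytes (3.63%), and 2 higher and 1 lower in non-myocytes (38%). In PLNR9C cardiomyocytes and in non-myocytes of both genotypes the members' share was near or below that of all genes. Cell markers moved with JQ1 as well: cardiomyocyte markers summed to 44684 to 50635 CPM in PLNR9C-JQ1 and 32115 to 37479 CPM in PLNR9C-vehicle ventricles at 20 weeks, and fibroblast markers to 737 to 2385 CPM in PLNR9C-JQ1 and 630 to 941 CPM in PLNR9C-vehicle cardiomyocytes. Their part in the JQ1 results was not tested.

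Ddit3, which did not pass for genotype with vehicle in ventricle, rose with JQ1 in ventricles of both genotypes. At 20 weeks it had 35.2, 30.7 and 37.0 CPM in PLNR9C-JQ1 against 17.1, 18.1 and 16.3 CPM in PLNR9C-vehicle ventricles (1.00 ± 0.12, adjusted p = 1.12e-05). At 8 weeks it had 24.4, 28.9 and 23.2 CPM in PLNR9C-JQ1 and 14.6, 15.0 and 15.3 CPM in PLNR9C-vehicle ventricles (0.77 ± 0.11, adjusted p = 2.04e-05). The JQ1 and vehicle libraries did not overlap. In wild type ventricles the rise was 0.59 ± 0.11 at 8 weeks (adjusted p = 0.000418) and 0.61 ± 0.12 at 20 weeks (adjusted p = 0.0013). Its rise in wild type cardiomyocytes (0.79 ± 0.18, adjusted p = 0.0284) was lost without 5 of the 6 libraries, every one but Wild type-JQ1 replicate 2. Its rise in PLNR9C non-myocytes (0.43 ± 0.16, adjusted p = 0.0471) was lost without PLNR9C-JQ1 replicate 2 (0.43) or 3 (0.42) or PLNR9C-vehicle replicate 2 (0.40) or 3 (0.36).

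Atf4 rose with JQ1 in ventricles too. At 8 weeks it had 65.7, 65.5 and 72.9 CPM in PLNR9C-JQ1 against 50.1, 51.7 and 50.2 CPM in PLNR9C-vehicle ventricles (0.42 ± 0.066, adjusted p = 7.06e-05). Wild type ventricles at 8 weeks had 58.9, 56.4 and 52.3 CPM with JQ1 against 40.3, 38.3 and 39.6 CPM with vehicle (0.50 ± 0.067, adjusted p = 1.55e-05). At 20 weeks the rise was 0.55 ± 0.093 in PLNR9C (adjusted p = 0.000256) and 0.67 ± 0.094 in wild type (adjusted p = 5.78e-05). Atf4 was higher with genotype and with JQ1, and PLNR9C-JQ1 ventricles held the highest mean of the 4 groups at both ages. Their difference from Wild type-JQ1 ventricles depended on single libraries, as given below. In wild type non-myocytes the rise of 0.29 ± 0.11 (adjusted p = 0.0433) was lost without 5 of the 6 libraries, every one but Wild type-JQ1 replicate 2. Atf5 rose with JQ1 in PLNR9C ventricles at 20 weeks, with 61.4, 55.4 and 56.9 CPM in PLNR9C-JQ1 against 46.1, 41.4 and 47.7 CPM in PLNR9C-vehicle libraries (0.36 ± 0.099, adjusted p = 0.0101), and that call was lost without PLNR9C-vehicle replicate 2 (0.30, adjusted p = 0.056). Ppp1r15a rose with JQ1 in wild type ventricles, by 0.38 ± 0.091 at 8 weeks (adjusted p = 0.00405) and 0.37 ± 0.098 at 20 weeks (adjusted p = 0.00988). In PLNR9C ventricles its changes of 0.17 and 0.07 did not pass. Ppp1r15a did not pass the test for an unequal JQ1 effect between genotypes at either age. Nupr1 passed in none of the 8 JQ1 comparisons, with changes from -0.44 to 0.50.

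Gdf15 fell with JQ1 in ventricles of both genotypes at 8 weeks and did not pass in the other 6 JQ1 comparisons. In PLNR9C ventricles at 8 weeks it had 7.74, 8.54 and 8.23 CPM with JQ1 against 20.5, 17.3 and 14.0 CPM with vehicle (-1.08 ± 0.21, adjusted p = 0.00117). In wild type ventricles at 8 weeks it had 1.70, 0.934 and 0.578 CPM with JQ1 against 1.76, 3.11 and 3.48 CPM with vehicle (-1.43 ± 0.33, adjusted p = 0.004). Both falls held without any 1 library. At 20 weeks PLNR9C ventricles had 22.0, 35.5 and 45.6 CPM with JQ1 and 69.3, 75.3 and 110 CPM with vehicle, groups that did not overlap, and the change of -1.30 ± 0.43 lay just outside the threshold (adjusted p = 0.0505). That value passed without robust estimation (adjusted p = 0.0064), with only the 6 libraries compared (0.0495) and with the replicate number as a block (0.0096). In PLNR9C cardiomyocytes, where Gdf15 was most abundant, 215, 210 and 282 CPM with JQ1 and 266, 235 and 371 CPM with vehicle overlapped (-0.30, adjusted p = 0.735). Wild type ventricles at 20 weeks had 0.155, 1.68 and 1.22 CPM with JQ1 and 1.90, 1.91 and 6.59 CPM with vehicle, which do not overlap, but the change of -1.69 ± 0.82 did not pass (adjusted p = 0.169). Wild type cardiomyocytes were at -1.02 (adjusted p = 0.354). PLNR9C non-myocytes were at -0.84 (adjusted p = 0.224), a value that passed in a fit of only those 6 libraries (0.0341). In wild type non-myocytes the 6.03, 2.17 and 14.2 CPM with JQ1 and 7.81, 6.94 and 3.52 CPM with vehicle overlapped (0.31, adjusted p = 0.693). PLNR9C-JQ1 ventricles stayed above Wild type-JQ1 ventricles, by 2.96 ± 0.29 at 8 weeks (adjusted p = 3.87e-05; 5.96% of all genes) and 5.03 ± 0.65 at 20 weeks (adjusted p = 0.000326; 39.1%). Fgf21 totalled 7 reads in PLNR9C-JQ1 and 31 in PLNR9C-vehicle ventricles at 8 weeks, a ratio of 0.206 (0.0765 to 0.476, counting error only), which did not pass in the fit without the filter (adjusted p = 0.0541).

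Trib3 fell under JQ1 in PLNR9C ventricles at 8 weeks, with 2.23, 4.34 and 2.99 CPM in PLNR9C-JQ1 against 8.30, 9.90 and 6.30 CPM in PLNR9C-vehicle libraries (-1.34 ± 0.23, adjusted p = 0.000244). At 20 weeks PLNR9C-JQ1 ventricles had 4.44, 4.97 and 5.12 CPM and PLNR9C-vehicle ventricles 3.82, 4.36 and 5.06 CPM (0.14, adjusted p = 0.604). The JQ1 effect in PLNR9C therefore differed between the ages, by 1.46 ± 0.31 at 20 weeks minus 8 weeks (adjusted p = 0.0311; 0.271% of all genes), a call lost without 8 of the 12 libraries (1.26 to 1.80 over all 12). Trib3 also fell in wild type non-myocytes, with 7.93, 10.2 and 7.75 CPM in Wild type-JQ1 against 13.2, 14.2 and 17.5 CPM in Wild type-vehicle libraries (-0.80 ± 0.18, adjusted p = 0.00342). In wild type ventricles at 20 weeks its fall (-0.64 ± 0.22, adjusted p = 0.0353) was lost without Wild type-JQ1 replicate 1 (-0.53) or 3 (-0.63) or Wild type-vehicle replicate 1 (-0.48) or 2 (-0.60). The JQ1 effect in PLNR9C differed between cardiomyocytes and non-myocytes for 0 of 9 members by edgeR and by DESeq2 (2.43% of all genes by edgeR), and 0 members had an unadjusted p under 0.05.

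Chac1 was the only tested member that passed the test for a JQ1 response differing between genotypes, at 20 weeks, where 0.357% of all genes passed. It had 12.1, 14.1 and 13.5 CPM in PLNR9C-JQ1 against 9.35, 9.27 and 9.38 CPM in PLNR9C-vehicle ventricles, a rise of 0.50 ± 0.13 (adjusted p = 0.00801). In wild type it had 2.12, 2.76 and 3.17 CPM with JQ1 against 7.10, 5.91 and 5.98 CPM with vehicle, a fall of 1.23 on the log2 scale (-1.23 ± 0.16, adjusted p = 2.64e-05). Neither pair of groups overlapped, and the directions were opposite. The difference of the JQ1 effects, PLNR9C minus wild type, was 1.74 ± 0.21 (adjusted p = 0.00121), and it held without any 1 of the 12 libraries (1.58 to 1.86). Under JQ1 the genotypes were therefore 2.30 ± 0.15 apart (adjusted p = 3.25e-09). At 8 weeks Chac1 had 13.4, 15.0 and 7.88 CPM in PLNR9C-JQ1 and 13.5, 16.8 and 7.74 CPM in PLNR9C-vehicle ventricles, while wild type ventricles had 3.51, 2.09 and 2.76 CPM with JQ1 against 6.46, 5.21 and 7.81 CPM with vehicle (-1.23 ± 0.37, adjusted p = 0.0323). That wild type fall was lost without Wild type-JQ1 replicate 2 (-1.05) or 3 (-1.22) or Wild type-vehicle replicate 1 (-1.23) or 3 (-1.07). The difference of 1.17 ± 0.48 at 8 weeks did not pass (adjusted p = 0.853), in a comparison where 0.00645% of all genes passed. There 0 members passed by edgeR or DESeq2 and 3 had an unadjusted p under 0.05. In each fraction 0 members passed by edgeR or DESeq2 and 1 had an unadjusted p under 0.05. No gene (0%) passed by edgeR in the fractions, where 954 genes in cardiomyocytes and 1391 in non-myocytes had an unadjusted p under 0.05 and DESeq2 called 7 and 66 in that order. In cardiomyocytes Chac1 averaged 16.0 ± 2.63 CPM in PLNR9C-JQ1 and 15.5 ± 4.08 CPM in PLNR9C-vehicle libraries. Wild type cardiomyocytes averaged 5.57 ± 1.02 CPM with JQ1 and 5.96 ± 2.09 CPM with vehicle. Neither JQ1 change of Chac1 in cardiomyocytes passed.

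Under JQ1 the genotypes still differed. PLNR9C-JQ1 against Wild type-JQ1 gave 4 members higher and 0 lower of 9 in ventricle at 8 weeks (5.96% of all genes passed) and 7 higher and 0 lower at 20 weeks (39.1%). Cardiomyocytes had 5 higher and 0 lower (25.9%), and non-myocytes 1 higher and 0 lower (18.6%), that one being Nupr1 (1.21 ± 0.19, adjusted p = 0.00075). In cardiomyocytes Trib3 had 6.35, 5.81 and 6.41 CPM in PLNR9C-JQ1 against 1.27, 1.25 and 0.651 CPM in Wild type-JQ1 libraries (2.54 ± 0.32, adjusted p = 0.000247). Nupr1 had 2.58, 8.31 and 4.10 CPM in PLNR9C-JQ1 against 0.724, 0.313 and 0.93 CPM in Wild type-JQ1 cardiomyocytes (2.90 ± 0.48, adjusted p = 0.00121). PLNR9C-JQ1 cardiomyocyte replicate 2, the library at 8.31 CPM, held the highest fibroblast marker sum of its fraction (2385 CPM), and without it Nupr1 was at 2.33 (adjusted p = 0.00256). Fgf21 totalled 22 reads in PLNR9C-JQ1 and 2 in Wild type-JQ1 cardiomyocytes, a ratio of 10.5 (2.57 to 91.8). Ddit3 differed between the genotypes in ventricle under JQ1 at 20 weeks (0.36, adjusted p = 0.0221), but not without PLNR9C-JQ1 replicate 1 or 3 or Wild type-JQ1 replicate 1 (0.20 to 0.47 over the 6 libraries). For Atf4 the difference was 0.28 at 8 weeks, lost without PLNR9C-JQ1 replicate 3 (0.23) or Wild type-JQ1 replicate 3 (0.24), and 0.26 at 20 weeks, lost without 4 of the 6 libraries (0.18 to 0.38 over all 6).

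**Figure D4:**
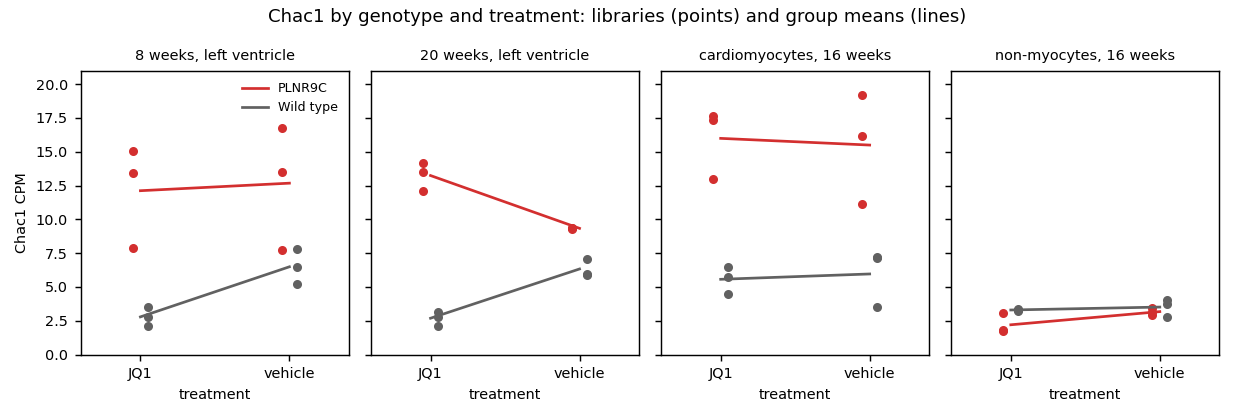
Chac1 in CPM (linear axis from 0) by treatment and genotype in each sample type; points are libraries and lines join group means of 3. At 20 weeks the PLNR9C line is higher with JQ1 than with vehicle, and the wild type line is lower with JQ1.

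The rest of the pathway was described through lists of genes that are not members, also chosen with earlier results of these data known. The counts below are read beside the shares of all genes that passed for genotype in either direction, which were 14.4% for 8-week ventricles, 44.7% for 20-week ventricles, 26.1% for the cardiomyocyte pools and 18.6% for the non-myocyte pools. Among 10 genes of mitochondrial folate, serine and proline synthesis, 6 rose and 0 fell with genotype at 8 weeks, 6 rose and 1 fell at 20 weeks, 6 rose and 0 fell in cardiomyocytes, and 1 rose and 0 fell in non-myocytes. Median log2 fold changes of the list were 0.78, 0.74, 1.36 and 0.05 in that order, beside -0.011 to 0.00966 for all genes. Mthfd2, the mitochondrial enzyme of one-carbon metabolism, rose by 3.35 ± 0.25 at 8 weeks, 3.74 ± 0.18 at 20 weeks and 3.90 ± 0.24 in cardiomyocytes. Pycr1, which makes proline, rose by 1.88 ± 0.24, 2.04 ± 0.23 and 2.51 ± 0.29 in the same comparisons, and by 1.28 ± 0.31 in non-myocytes.

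Of 19 other ATF4 targets and bZIP partners tested, 6 rose and 1 fell with genotype at 8 weeks, 9 rose and 4 fell at 20 weeks, and 7 rose and 3 fell in cardiomyocytes, while 1 of 18 rose and 2 fell in non-myocytes, a share near that of all genes. The medians were 0.16, 0.30, 0.43 and -0.11 in that order. Asns, asparagine synthetase, rose by 2.23 ± 0.27 at 8 weeks, 1.73 ± 0.24 at 20 weeks and 2.95 ± 0.30 in cardiomyocytes. Slc7a5, the large neutral amino acid transporter, rose by 1.67 ± 0.12, 1.07 ± 0.12 and 1.74 ± 0.15 in those comparisons. Vldlr, a lipoprotein receptor, fell by 0.37 at 8 weeks and by 0.95 at 20 weeks on the log2 scale. Of 20 cytosolic aminoacyl-tRNA synthetases, 6 rose and 0 fell at 8 weeks, 8 rose and 1 fell at 20 weeks, 11 rose and 0 fell in cardiomyocytes (Sars, 0.90 ± 0.10) and 2 rose and 0 fell in non-myocytes. Their medians were 0.14, 0.12, 0.38 and 0.10, and the share that passed was about that of all genes at 20 weeks and below it in non-myocytes.

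Among 18 ER chaperone and unfolded protein response genes, 15 rose and 0 fell at 8 weeks, 9 rose and 2 fell at 20 weeks, 14 rose and 1 fell in cardiomyocytes, and 1 rose and 0 fell in non-myocytes, the last a share below that of all genes. The medians were 0.39, 0.26, 0.67 and 0.12. Sdf2l1, an ER co-chaperone component, rose by 2.32 ± 0.21 at 8 weeks and 3.36 ± 0.30 in cardiomyocytes. The upstream genes moved little: of 15 eIF2 kinase and eIF2 pathway genes 0 passed by edgeR in 8-week ventricles and in either fraction (3 in each had an unadjusted p under 0.05), and at 20 weeks Eif2ak3 (PERK, 0.47 ± 0.13) and Eif2ak2 (PKR, 0.29 ± 0.09) rose and Oma1, the mitochondrial protease, fell (-0.70 ± 0.09), a share below that of all genes. In ventricles at 20 weeks the mitochondrial unfolded protein response list went the other way, with 0 of 8 higher and 6 lower, among them Hspd1 (-0.79 ± 0.07) and Hspa9 (-0.61 ± 0.07). Cardiomyocyte markers, given above, were lower in the same ventricles. In the cardiomyocyte pools 1 of the 8, Yme1l1 (-0.29 ± 0.09), fell with genotype, again a share below that of all genes. Counts of this list at 8 weeks and in non-myocytes are not given here.

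With JQ1, Slc7a5 rose in wild type ventricles (1.58 ± 0.12 at 8 weeks, 1.31 ± 0.12 at 20 weeks), cardiomyocytes (1.41 ± 0.15) and non-myocytes (1.67 ± 0.24), and in PLNR9C ventricles by 0.48 ± 0.11 at 8 weeks and 0.83 ± 0.11 at 20 weeks. Ern1, the ER stress sensor IRE1 alpha, rose with JQ1 in all 8 comparisons (0.52 to 1.15). ER chaperone genes rose with JQ1 in 14 of 18 cases in PLNR9C ventricles at 20 weeks (median 0.51; Hspa5, the chaperone BiP, 0.64 ± 0.11), beside 31.9% of all genes, and in 2 of 18 in wild type ventricles at 20 weeks (median 0.13), beside 27.2%. Whether those lists differ between genotypes was not tested. Among the receptors of the 2 hormones Fgfr1 rose with JQ1 in all 8 comparisons (0.35 to 1.28), and it rose with genotype in all 4 sample types, by 0.29 ± 0.06 at 8 weeks and 0.83 ± 0.08 at 20 weeks. Ret fell with genotype at 20 weeks (-1.38 ± 0.19) and in non-myocytes (-1.92 ± 0.39).

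Across the 16 group means, each centred within its sample type, the 9 tested members are described in 2 sets chosen after their values were seen, with no test, since groups of a sample type share tissue and scale. Gdf15 correlated with Nupr1 (r = 0.95), Chac1 (0.87), Trib3 (0.81) and Atf5 (0.80). Ddit3 correlated with Sesn2 (0.94) and Atf4 (0.83), and Atf4 with Ppp1r15a (0.89) and Sesn2 (0.86). Between the sets r ran from -0.10 (Trib3 with Sesn2) to 0.69 (Atf5 with Atf4). Sesn2 and Ddit3 were near 0 with Gdf15 (-0.07 and -0.10). Atf4 was at 0.35 with Gdf15, 0.38 with Trib3 and 0.45 with Nupr1, and Ppp1r15a at 0.67 with Atf5, 0.44 with Trib3 and 0.41 with Nupr1, so the sets were not separate. Among 13694 genes tested in all sample types, those with the profile closest to Gdf15 were Tmem63c (0.98), Plcg2 (0.979) and Tlr2 (0.979). Closest to Trib3 were Arhgef2 (0.944), Slc6a9 (0.942) and Alg14 (0.935). Closest to Atf4 were Trim27 (0.949), 2410006H16Rik (0.943) and AK086793 (0.939).

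**Figure D5:**
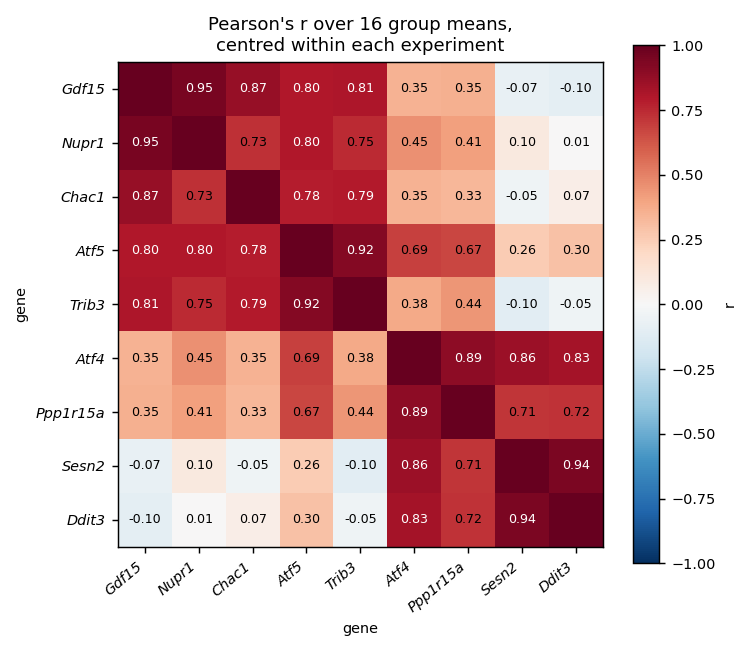
Pearson's r between the 9 tested members over 16 group means of log2 CPM, centred within each sample type; colour runs from -1 to 1. Gdf15, Nupr1, Chac1, Atf5 and Trib3 correlate with one another at 0.73 or more, and Sesn2 and Ddit3 lie near 0 with Gdf15, Chac1 and Trib3.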

How the data were processed

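The members and the gene lists were chosen with earlier results of these data known. RNA-seq libraries were made from total RNA with Nextera reagents, per the labels' protocols. The authors deposited raw read counts per gene, per the file headers, and a normalized value treated as RPKM, which entered no test. STAR 2.4.1b and the builds GRCm38 and mm10 appear in the submitters' processing notes with no role. Counting tool, annotation and strand setting are unknown (not given in the sources used here). Counts of each of the 4 experiments (12 libraries) were fitted in edgeR 4.0.16 under R 4.3.3, with filterByExpr, TMM and glmQLFit (robust), after the script was tested on simulated data. Pairs of experiments (24 libraries) were fitted jointly for age and fraction. All 10 members are named throughout, and up to 4 genes with the smallest p from each other list. Alternatives were DESeq2 1.42.0, RLE scaling, no low-count filter, no robust estimation, only the libraries compared, the replicate number as a block, and leaving out each library. Same-numbered libraries deviated together between fractions (12 of 12 pairs, r = 0.128 to 0.32) but not within experiments (median r -0.0068 to 0.0116), so the block is given beside results for the fractions.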

Additional observations from a re-analysis of the deposited data

Results flagged for a closer look

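These 10 results were picked out because an effect differed between conditions by a test of the difference itself, with values in log2 units and edgeR's quasi-likelihood test. Chac1 responded to JQ1 in opposite directions in PLNR9C and wild type ventricles at 20 weeks, and the difference was 1.74. The genotype effect at 20 weeks minus that at 8 weeks was -1.14 for Trib3, 1.35 for Nupr1 and 2.04 for Gdf15. The JQ1 effect on Trib3 in PLNR9C at 20 weeks minus that at 8 weeks was 1.46. The genotype effect in cardiomyocytes minus that in non-myocytes was 1.89 for Atf5, 0.79 for Ddit3, 3.64 for Trib3, 1.48 for Chac1 and 2.58 for Gdf15. Among these, Chac1 at 20 weeks, Nupr1 by age, and Atf5 and Trib3 by fraction kept their call without any 1 library.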

How the results depend on the processing

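Of 89 member calls, 65 passed in every setting run, 75 in every setting with all libraries, 66 without any 1 library, and 0 changed direction; 17 further values passed only in an alternative. Of 234 member values 128 passed in no setting, and 50 of those changed sign in a setting, so no direction is read from them. The causes of the changes below were not tested.

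The number of members called was 3 rather than 5 for the genotype effect in cardiomyocytes minus non-myocytes with RLE scaling (3 to 5 leaving out each library). For the JQ1 effect in PLNR9C at 20 minus 8 weeks it was 2 rather than 1 with DESeq2 (0 to 1 by library). With only the 6 libraries compared it was 0 rather than 1 for JQ1 in PLNR9C cardiomyocytes (Sesn2, adjusted p = 0.0766) and 2 rather than 1 for PLNR9C-JQ1 against Wild type-JQ1 non-myocytes (1 to 2 by library). For wild type age it was 0 rather than 1 with those libraries alone or without robust estimation (0 to 1 by library). Leaving out each library gave 1 to 3 members for the genotype effect at 20 minus 8 weeks, 1 to 3 for JQ1 in PLNR9C non-myocytes, 2 to 3 rather than 4 for genotype in non-myocytes, and 1 to 2 for JQ1 in wild type cardiomyocytes. The replicate number as a block changed the calls given above for the fractions, Trib3 at 20 weeks, Gdf15 under JQ1 at 20 weeks and Atf4 in cardiomyocytes (0.68, adjusted p = 0.0566), and no other member call.

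Counts over all genes moved more: for the interaction at 20 weeks 57 genes were called, 208 by DESeq2, 127 without the filter and 92 with the block, and at 8 weeks 1, against 11 by DESeq2, 8 without the filter and 0 without robust estimation. For JQ1 in PLNR9C cardiomyocytes 1480 were called and 22 with only the 6 libraries; for JQ1 in wild type cardiomyocytes 513, 868 by DESeq2 and 1183 with the 6 libraries. The JQ1 effect at 20 minus 8 weeks had 44 and 146 by DESeq2, and that in cardiomyocytes minus non-myocytes 384, 637 by DESeq2 and 919 with the block. The narrower motif TGATGCAA left 3 members and 0.895% of promoters. For wild type age 1055 genes were called, and 643 with only the 6 libraries. Fgf21 was limited by depth.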
